A study of Mus musculus with 2 samples.

Results

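Intestinal CD4 T nuclei selected on the summed RNA of 3 Th1 genes and 2 genes of cytotoxic granules, either of which could meet the threshold alone, were drawn from a joint RNA and chromatin accessibility profile of single nuclei. A nucleus was counted as a Th1 nucleus with cytotoxic features when it held 500 to 4000 RNA molecules, counted by unique molecular identifiers (UMIs), and at least 1 UMI of Cd3d, Cd3e or Cd3g. It also had to hold no UMI of Foxp3, Il10, Eomes, Gzmk or Zbtb16 and at least 3 UMIs over the 5 rule genes Ifng, Tbx21, Il12rb2, Gzma and Nkg7. The rule was met by 578 of the 6614 barcodes in both libraries. In the knockout library 199 of the 882 Cd3-positive nuclei in that UMI range met it, which is 22.6% (exact binomial 95% interval 19.8% to 25.5%). In the control library 379 of 2030 did, which is 18.7% (17.0% to 20.4%). With every nucleus thinned to 1000 UMIs before the rule was applied, the shares were 14.3% and 13.6%. These intervals, and all others given below, cover counting error only.

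The knockout library came from CD4creZfp362flox/flox mice, titled Zfp362-/-, in which Cre recombinase under Cd4 regulatory sequence removes the floxed gene in T cells. The control library, titled Zfp362+/+, was made from Zfp362flox/flox mice, which carry the floxed alleles without Cre. Mice of both genotypes were 26 to 33 weeks old, colon and small intestine were pooled, and nuclei were made from cells sorted as CD4+CD44+CD62L-, after those bearing F4/80, CD45R, CD11c or CD8a had been gated out. Each genotype had 1 library of pooled material, so no test between genotypes exists, and animals, sort and library cannot be told apart from genotype. The series asks, by its title, how Zfp362, a C2H2 zinc-finger protein, bears on inflammatory T-cell responses apart from Th17 differentiation.

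Th1 cells are the CD4 helper cells that make interferon-gamma. Interleukin-12, received through a receptor that includes Il12rb2, acts through Stat4, and the T-box factor encoded by Tbx21 directs the programme. Some CD4 T cells of the gut also carry granzymes, the proteases that killer lymphocytes deliver into target cells, and the mucosa holds many memory T cells that do not recirculate.

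The Th1 nuclei held 456481 UMIs in the knockout library and 799287 in the control library, with medians of 2094 and 1941 UMIs per nucleus. The other Cd3-positive nuclei in the same UMI range, 683 in the knockout library and 1651 in the control library, had medians of 2153 and 1996 UMIs. Accessibility depth differed more between libraries than between populations. Th1 nuclei had medians of 4285 (knockout) and 3113 (control) fragments in peaks, against 4455 and 3220 in the other nuclei. A further 124 knockout and 65 control nuclei met the rest of the rule with over 4000 UMIs and were left out by its upper limit. Of all Cd3-positive nuclei, 502 of 1390 in the knockout and 439 of 2478 in the control library lay over that limit. It thus removed a larger share of the knockout library, and the ratios between genotypes below cover only nuclei within it unless stated. The Zfp362 transcript was too sparse to check the genotype, with 4 UMIs in knockout and 14 UMIs in control Th1 nuclei (8.76 against 17.5 CPM, UMIs scaled to a common total), and the labels do not say which exons were removed.

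The rule genes set what these nuclei are, so their values are a description. Ifng held 177 UMIs in Th1 nuclei and 79 in other nuclei of the knockout library, or 388 against 50.9 CPM. In the control library Ifng held 370 UMIs in Th1 nuclei and 218 in other nuclei, or 463 against 61.9 CPM. Il12rb2 had the most UMIs of the rule genes, at 1917 against 282 CPM in the knockout library and 1834 against 139 CPM in the control library. Gzma, which encodes granzyme A, stood at 1209 against 150 CPM (knockout) and 1027 against 139 CPM (control). Nkg7, which encodes a protein of cytotoxic granule membranes, stood at 364 against 90.9 CPM and 495 against 88.3 CPM. Tbx21 stood at 237 against 54.8 CPM and 268 against 46.6 CPM.

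Most members met the rule through more than 1 gene. Of the 199 knockout Th1 nuclei, 39 held UMIs of a single rule gene, 90 of 2, 53 of 3, 12 of 4 and 5 of all 5. Of the 379 control Th1 nuclei, 85 held a single one, 139 held 2, 112 held 3, 41 held 4 and 2 held all 5. Both arms of the name were found in the same nucleus, at least 1 UMI of Ifng, Tbx21 or Il12rb2 with at least 1 of Gzma or Nkg7, in 113 knockout (56.8%) and 220 control (58.0%) nuclei. Another 68 knockout and 129 control nuclei held the Th1 genes alone, and 18 and 30 held Gzma or Nkg7 alone. Near the threshold, 34 knockout and 62 control nuclei held exactly 3 rule-gene UMIs, and 46 and 105 nuclei that met every other condition held exactly 2. In nuclei with a single arm, the other arm was not detected at this depth.

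Markers of other cells that the sort could hold were at or near 0 for natural killer and CD8 cells. Ncr1, Klra7, Klra8 and Klre1 had no UMI in Th1 nuclei of either library, and the summed natural killer list held 15 UMIs in each (32.9 CPM in knockout and 18.8 CPM in control Th1 nuclei, against 70.3 and 66.1 CPM in other nuclei). Cd8a had no UMI in the Th1 nuclei. The gamma delta T-cell list was higher in Th1 nuclei, at 94.2 against 34.8 CPM in the knockout library and 72.6 against 27.5 CPM in the control library. The Tcrg-C2 constant region gave the most of these UMIs, 21 in knockout and 31 in control Th1 nuclei, whereas Trdc had 5 UMIs in 3 knockout nuclei and none in control Th1 nuclei and Sox13 had none. Trac, the alpha chain constant region, stood at 589 against 558 CPM (knockout) and 712 against 619 CPM (control). Epithelial transcripts reached 237 against 102 CPM in the knockout library and 36.3 against 52.2 CPM in the control library, and 1 knockout nucleus held 75.8% of the Tff2 UMIs. Plasma-cell transcripts stood at 173 against 228 CPM and 78.8 against 71.8 CPM, and stromal ones at 180 against 177 CPM and 134 against 144 CPM. Innate lymphoid (107 against 211 CPM and 65.1 against 198 CPM), myeloid (48.2 against 95.4 CPM and 31.3 against 104 CPM) and B-cell transcripts (0 against 12.2 CPM and 2.50 against 8.80 CPM) were lower in the Th1 nuclei of both libraries. The part of these transcripts in the ratios below was not tested.

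The sequences before the start of 4 marker genes are shown because the accessibility data cover them and because Tbx21 encodes a T-box factor. They are the 250 bases before the RefSeq start (GRCm38.p6), 5′ to 3′ on the gene's strand, with GGTGTGA, a core T-box motif searched on both strands, in capitals. Nkg7 lies at chr7:43436888-43437137 (plus strand), Xcl1 at chr1:164935523-164935772 (minus strand), Ifng at chr10:118440796-118441045 (plus strand) and Il12rb2 at chr6:67376189-67376438 (minus strand).
Nkg7: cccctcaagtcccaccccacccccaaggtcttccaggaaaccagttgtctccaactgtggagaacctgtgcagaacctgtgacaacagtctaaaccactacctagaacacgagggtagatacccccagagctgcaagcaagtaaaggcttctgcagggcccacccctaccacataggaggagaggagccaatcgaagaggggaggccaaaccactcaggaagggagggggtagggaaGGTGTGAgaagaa
Xcl1: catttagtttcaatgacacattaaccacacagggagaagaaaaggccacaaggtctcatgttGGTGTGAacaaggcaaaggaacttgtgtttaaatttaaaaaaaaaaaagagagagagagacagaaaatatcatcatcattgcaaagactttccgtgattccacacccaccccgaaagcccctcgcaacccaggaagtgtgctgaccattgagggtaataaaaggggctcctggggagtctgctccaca
Ifng: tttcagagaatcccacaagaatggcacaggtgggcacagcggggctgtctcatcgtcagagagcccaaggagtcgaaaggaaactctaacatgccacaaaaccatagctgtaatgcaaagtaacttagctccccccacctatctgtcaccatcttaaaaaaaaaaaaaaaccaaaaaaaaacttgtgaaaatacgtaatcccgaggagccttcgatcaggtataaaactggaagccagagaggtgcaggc
Il12rb2: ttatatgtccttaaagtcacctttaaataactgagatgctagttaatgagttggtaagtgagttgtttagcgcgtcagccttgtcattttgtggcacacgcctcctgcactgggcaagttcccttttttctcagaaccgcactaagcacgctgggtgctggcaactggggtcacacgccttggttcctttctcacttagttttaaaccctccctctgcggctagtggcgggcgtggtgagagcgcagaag
The motif began 13 bases before the RefSeq start of Nkg7, in a stretch that the GENCODE annotation places within the transcript, and 188 bases before that of Xcl1. It was not found in the Ifng or Il12rb2 window. For shares over genes, the windows searched were longer than those printed, from 250 bases before the RefSeq start to 50 bases after it. Of all 32851 such windows, 3.98% held the motif. Rule genes left out, 4 of 26 windows of genes at least 2-fold higher in Th1 nuclei of both libraries held it (15.4%, 18 genes). It was in 1 of 117 windows (0.855%) of genes at least 2-fold lower and in 3.19% of windows of all genes measured in RNA. Motifs of other transcription factor families were searched too. In windows of higher genes, AP-1 was at 11.5%, RUNX, GATA, IRF and ROR at 3.85% each, and STAT and ETS at 0. Over all genes measured in RNA, AP-1 was at 5.15%. In windows of lower genes, ROR was at 20.5%, against 12.2% over all genes measured. Several windows of a gene can share bases, and the genes were chosen by their RNA, so these shares are a description.

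Outside the rule genes, the Th1 nuclei carried more RNA of Xcl1, Ccl5, Fasl, Slamf7 and Ctsw in both libraries. Ratios were taken on summed UMIs with 0.5 UMI added, over 3757 genes with at least 20 UMIs expected in Th1 nuclei of each library. In the knockout library 58 (1.54%) were at least 2-fold higher and 167 (4.45%) at least 2-fold lower, and in the control library 53 (1.41%) and 152 (4.05%). In both libraries 32 of them (0.852%) were at least 2-fold higher, 5 of which are the rule genes, and 99 (2.64%) were at least 2-fold lower. Without the upper limit of 4000 UMIs these counts were 10 and 36, an alternative chosen after seeing the data. With Gzma and Nkg7 alone as rule genes, at a lowered threshold of 2 rule-gene UMIs, they were 12 and 36. Xcl1, the chemokine that attracts cross-presenting dendritic cells, held 256 UMIs in Th1 and 234 in other knockout nuclei, or 561 against 151 CPM, a log2 ratio of 1.89 (1.63 to 2.16). In the control library it held 458 and 355 UMIs, or 573 against 101 CPM, a log2 ratio of 2.51 (2.30 to 2.71). A single knockout nucleus held 21.9% of the Xcl1 UMIs in Th1 nuclei, against 7.86% for the highest control nucleus.

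Slamf7, a surface receptor of cytotoxic lymphocytes, held 85 UMIs in Th1 and 83 in other knockout nuclei, and 99 and 132 UMIs in the control library. Its log2 ratios were 1.80 (1.35 to 2.25) in the knockout library and 1.73 (1.33 to 2.11) in the control library. Fasl, the death ligand for Fas, stood at 182 against 78.0 CPM (log2 ratio 1.22) in the knockout library and 270 against 81.8 CPM (1.73) in the control library. Ctsw, a cathepsin of cytotoxic lymphocytes, stood at 210 against 83.8 CPM (1.33) and 193 against 81.8 CPM (1.24). All 3 were thus more than 2-fold higher in Th1 nuclei of each library.

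Gzmb, which encodes granzyme B, was higher in Th1 nuclei, by an amount that depended on which nuclei it was set against. It held 220 UMIs in Th1 and 240 in other knockout nuclei, a log2 ratio of 1.64 (1.37 to 1.91), and 346 and 782 UMIs in the control library, a log2 ratio of 0.96 (0.78 to 1.15). Against other nuclei in which Foxp3, Il10, Eomes, Gzmk and Zbtb16 were also at 0, the ratios were 3.61 and 3.11. Gzmb UMIs lay in 39 of 199 knockout and 75 of 379 control Th1 nuclei. Prf1, the pore-forming protein of the same granules, was below the UMI minimum, with 20 UMIs in Th1 and 11 in other knockout nuclei (43.8 against 7.09 CPM) and 22 and 23 UMIs in the control library (27.5 against 6.53 CPM). Serpinb9, an inhibitor of granzyme B, had log2 ratios of 1.00 and 1.46 (knockout and control), and the related Serpinb6b had 0.92 and 1.07.

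Of the 22 cytotoxic genes listed beside the rule genes, 12 were measured. Among them 7 had a log2 ratio above 0 in both libraries, against 32.3% of all genes tested, and 5 had one below 0 in both, against 35.1%. The list medians were 0.96 in the knockout and 1.02 in the control library, against -0.01 and -0.02 over all genes. The 5 lower members were Klrg1, Hopx, Zeb2, Srgn and Lamp1. Klrg1, a receptor of terminally differentiated killer cells, was the lowest. It held 13 UMIs in Th1 and 184 in other knockout nuclei (log2 ratio -2.01) and 11 and 364 UMIs in the control library (-2.85). Against other nuclei without the 5 excluded genes, the ratios of Klrg1 were -1.48 and -2.44. Hopx had log2 ratios of -0.60 and -0.85.

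**Figure D1:**
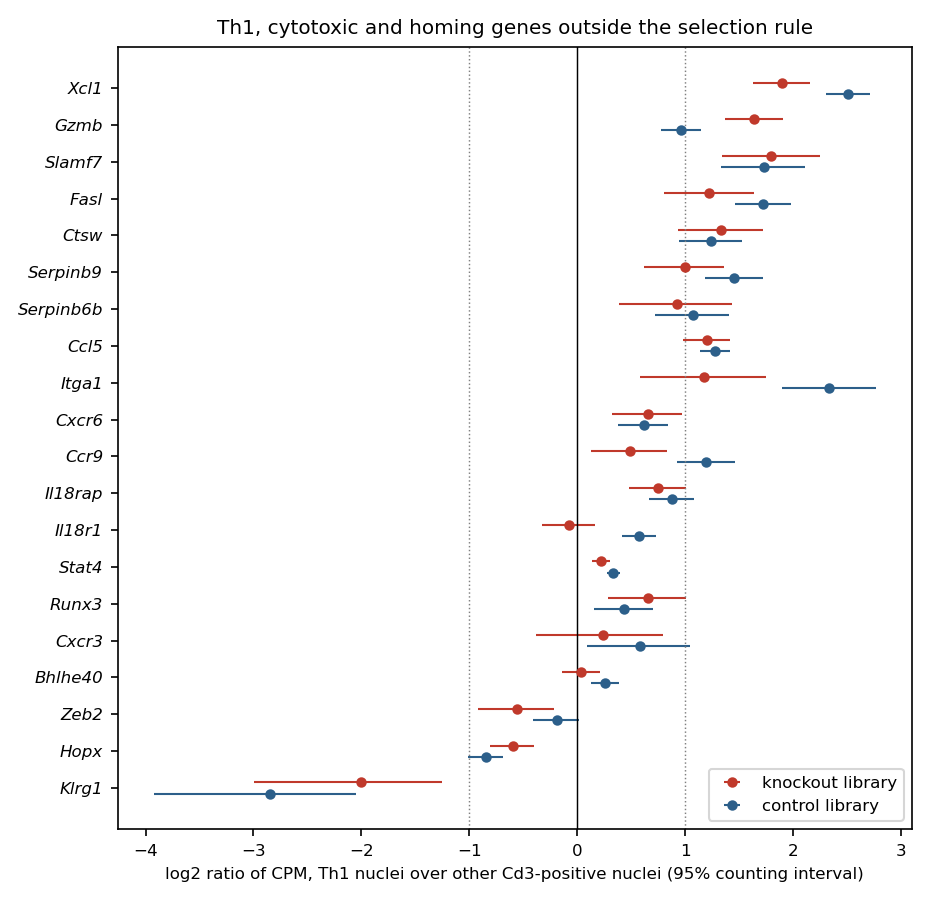
Log2 ratio of CPM in Th1 nuclei over other Cd3-positive nuclei for genes outside the rule (x axis), with the knockout library in red above the control library in blue and bars for the 95% counting interval. Xcl1, Slamf7, Fasl, Ctsw, Ccl5 and Itga1 lie past the dotted 2-fold line in both libraries, Gzmb past it in the knockout library only, and Klrg1 past the lower one in both.

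Of the 18 Th1 genes listed beside the rule genes, 13 were measured. Among these, 11 had a log2 ratio above 0 in both libraries, against 32.3% of all genes tested. Ccl5 and Fasl were among the 3 members at least 2-fold higher in both, as were 0.852% of all genes. Id2 was below 0 in both, as were 35.1% of all genes, and Il18r1 differed in sign. Medians were 0.24 (knockout) and 0.58 (control). Ccl5, a chemokine of effector T cells, held 291 UMIs in Th1 and 430 in other knockout nuclei (637 against 277 CPM, log2 ratio 1.20) and 655 and 1188 UMIs in the control library (819 against 337 CPM, 1.28). Against other nuclei without the 5 excluded genes, the ratios of Ccl5 were 1.53 and 2.11.

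The signalling genes upstream of interferon-gamma differed less. Stat4, which transmits the interleukin-12 signal, was found in 182 of 199 knockout and 361 of 379 control Th1 nuclei, at 3446 against 2965 CPM in the knockout library and 3328 against 2640 CPM in the control library, log2 ratios of 0.22 and 0.33. Il18rap, a chain of the interleukin-18 receptor, had log2 ratios of 0.75 and 0.87, and Runx3, which encodes a partner of the T-box factor at Ifng, had 0.65 and 0.44. Cxcr3, the classical Th1 chemokine receptor, held 34 UMIs in Th1 and 99 in other knockout nuclei (0.24, -0.38 to 0.80) and 51 and 151 UMIs in the control library (0.58, 0.09 to 1.04). Ccl4 and Tnf differed between the libraries. Ccl4 had log2 ratios of 0.03 in the knockout and 1.98 in the control library, with 30.0% and 24.6% of its Th1 UMIs in 1 nucleus each, and Tnf had 0.21 and 1.68.

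The genes with the highest ratios, ranked by the smaller of their 2 ratios, also included Itga1, Acoxl, Rcbtb2, Nmnat2, Dtx4 and Atp8a2. Itga1, the alpha chain of the collagen receptor VLA-1 on tissue memory cells, stood at 94.2 against 41.9 CPM (log2 ratio 1.17) in the knockout library and 121 against 24.1 CPM (2.33) in the control library. Acoxl, related to acyl-CoA oxidases, had ratios of 1.59 and 1.47. Dtx4, of the Deltex family, had 1.36 and 1.19. Nmnat2, an enzyme of NAD synthesis, had 1.32 and 1.27.

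Genes the rule did not use were also followed across nuclei with different sums of the rule genes, among nuclei without the 5 excluded genes. In the control library Xcl1 averaged 0.0916 UMIs per nucleus at a sum of 0, 0.619 at 2, 0.855 at 3 and 1.75 at 10 or more. In the knockout library the averages were 0.113, 1.61, 1.00 and 2.13. Nuclei just outside the threshold were thus not separated from those just inside it for Xcl1. Gzmb was different, with 0.290 UMIs per control nucleus at a sum of 3 and 2.21 at 10 or more, and 0.147 and 2.27 in the knockout library. The 62 knockout and 114 control nuclei with a sum of at least 10 thus held most Gzmb UMIs of the Th1 nuclei.

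**Figure D2:**
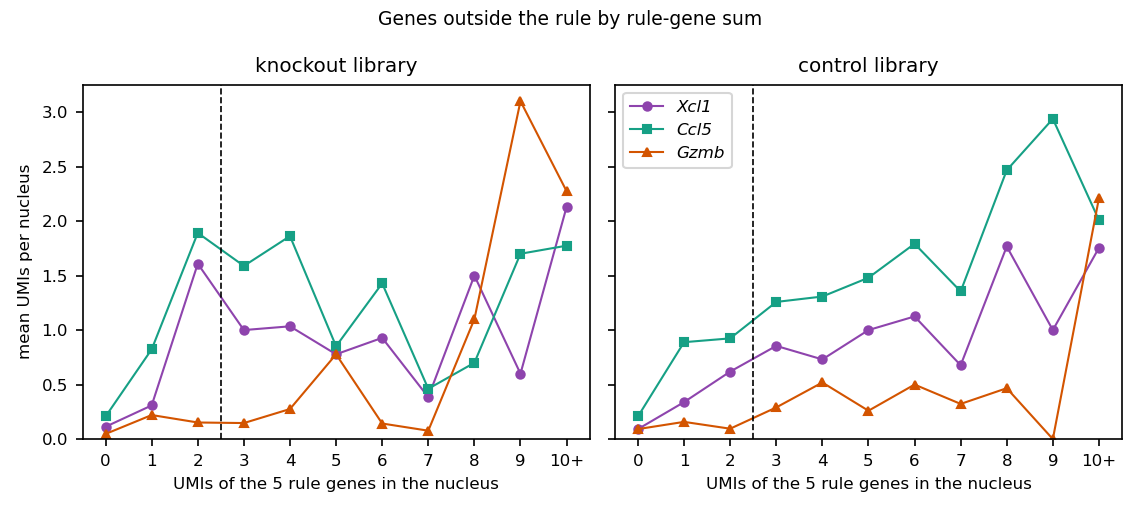
Mean UMIs per nucleus of Xcl1, Ccl5 and Gzmb (y axis) by the summed UMIs of the 5 rule genes (x axis), for nuclei without the 5 excluded genes, with the knockout library at the left and the control library at the right. The dashed line is the threshold of the rule; Ccl5 and Xcl1 are already above their level at 0 before it, and Gzmb is highest at 9 or more in the knockout library and at 10 or more in the control library.

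Shares of nuclei with a UMI were compared after every nucleus was thinned to 1000 UMIs, which left 195 knockout and 372 control Th1 nuclei. Ccl5 was found in 31.3% of knockout Th1 nuclei, 12.1% of other Cd3-positive nuclei and 2.84% of Cd3-negative nuclei with at least 2 markers of group 3 innate lymphoid cells. In the control library these shares were 36.3%, 12.4% and 2.25%. Fasl was found in 20.0% of Th1, 6.83% of other Cd3-positive and 0.438% of the innate nuclei of the knockout library, and in 24.7%, 7.22% and 0.375% of those of the control library. Xcl1 had a narrower margin over the innate nuclei, 17.4% and 6.22% against 4.81% in the knockout library and 21.5% and 5.73% against 2.87% in the control library. Unthinned, Ccl5 was found in 49.2% of knockout and 47.5% of control Th1 nuclei, at the depths given above, and in 6.24% and 4.29% of the innate nuclei, at medians of 2071 and 2001.5 UMIs.

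Most measured genes of other helper lineages were lower in the Th1 nuclei. None of the 11 measured Th17 genes was above 0 in both libraries, against 32.3% of all genes, and 8 were below 0 in both, against 35.1%. Medians were -0.57 (knockout) and -1.20 (control). Il23r, the interleukin-23 receptor of Th17 cells, stood at 67.9 against 260 CPM (log2 ratio -1.92) and 77.6 against 237 CPM (-1.60). Of 3 measured Th2 genes 2 were below 0 in both libraries and Il4 differed in sign. Gata3, the Th2 master regulator that intestinal regulatory cells also use, stood at 197 against 501 CPM (-1.34) and 183 against 459 CPM (-1.32). Il1rl1, the receptor for interleukin-33, was at 67.9 against 296 CPM (-2.10) and 63.8 against 333 CPM (-2.37). Il4, the Th2 cytokine, held 18 UMIs in Th1 and 82 in other knockout nuclei (-0.39, -1.25 to 0.33) and 105 and 185 UMIs in the control library (1.33, 0.96 to 1.68). A single nucleus held 55.6% of its knockout and 48.6% of its control Th1 UMIs.

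Genes of follicular helper and regulatory cells were lower too. Of 7 measured follicular helper genes 6 were below 0 in both libraries, against 35.1% of all genes, among them Pdcd1, the inhibitory receptor PD-1 (-1.65 and -1.26), and Tox2 (-1.32 and -1.93). All 9 measured regulatory genes other than Foxp3 were below 0 in both, with medians of -1.09 and -1.18. The rule kept Foxp3 nuclei out of the Th1 nuclei and left them in the others, and the difference for Ctla4 shrank from -0.47 and -0.75 to -0.05 and -0.30 against other nuclei without the 5 excluded genes. Areg, the growth factor amphiregulin, kept ratios of -1.08 and -2.23 in that setting.

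Markers of tissue exit and entry separated as well. Ccr7, the lymph-node homing receptor, held 5 UMIs in Th1 and 134 in other knockout nuclei (log2 ratio -2.85) and 31 and 478 in the control library (-1.79). Lef1, a transcription factor of naive and central memory T cells, had -1.13 and -1.36. Of 7 measured recirculation genes 5 were below 0 in both libraries, against 35.1% of all genes, and none above. Of 13 measured residence and homing genes 9 were above 0 in both, against 32.3% of all genes, and 2 below. Cxcr6, a receptor of resident memory cells, had log2 ratios of 0.66 and 0.62, and Ccr9, the small-intestinal homing receptor, had 0.49 and 1.20. Cxcr4, a chemokine receptor, had one of the 12 lowest ratios, with 16 UMIs in Th1 and 342 in other knockout nuclei (-2.61) and 44 and 1172 in the control library (-2.58).

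The lowest ratios of all were those of Frmd5 (-4.57 and -3.92) and Nckap5 (-3.35 and -3.51). Against other nuclei without the 5 excluded genes they were at -2.90 and -2.38 and at -2.31 and -2.43. Il1r2, a decoy receptor for interleukin-1, had -2.44 and -2.50, with 5 UMIs in knockout and 7 in control Th1 nuclei. Itgb8, an integrin chain that activates TGF-beta, had -2.02 and -2.52. The other members of the 12 lowest, Plcl1, Pxdc1, Ky, Npnt and Myo1d, lay between -2.87 and -1.93.

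**Figure D3:**
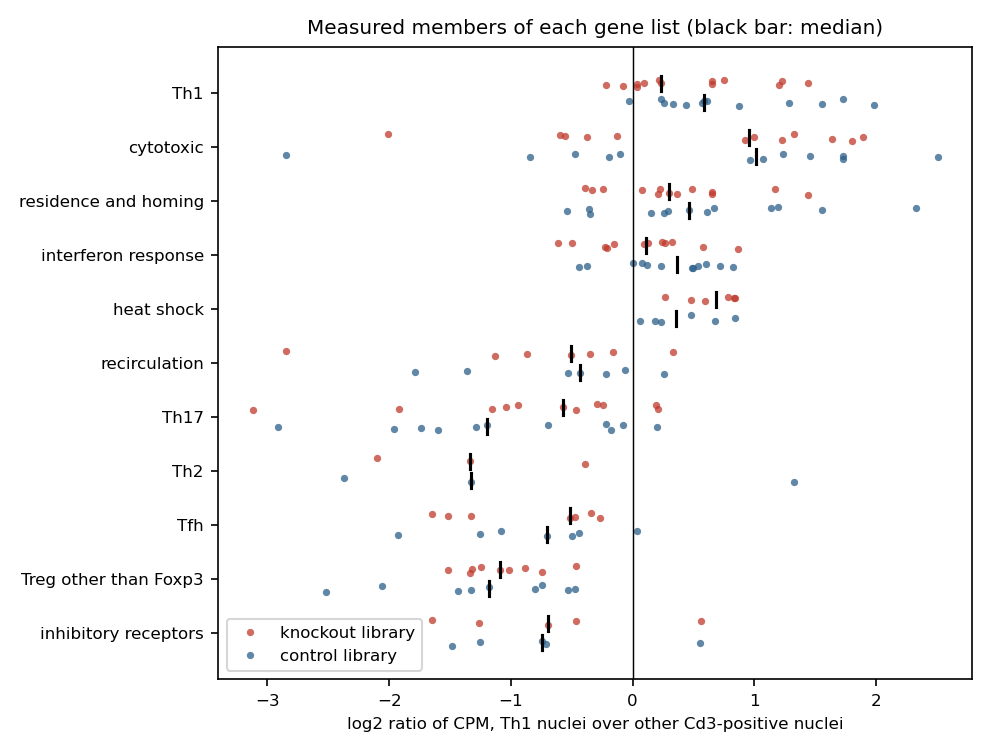
Log2 ratio of CPM in Th1 nuclei over other Cd3-positive nuclei (x axis) for every measured member of 11 gene lists, 1 point per gene, with the knockout library in red above the control library in blue and a black bar at each median. Medians of the Th1, cytotoxic and residence lists are above 0 in both libraries, and those of the recirculation, Th17, Th2, Tfh, Treg and inhibitory receptor lists below 0 in both.

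Activation and stress genes showed a smaller shift. Cd40lg, the helper ligand CD40L, stood at 524 against 280 CPM (log2 ratio 0.91) in the knockout library and 576 against 267 CPM (1.11) in the control library. Over all genes, 32.3% were above 0 in both libraries and 35.1% below. Of 14 measured activation genes 7 were above 0 in both libraries and 4 below. All 6 measured heat shock genes were above 0 in both, with medians of 0.69 and 0.35. Cytokine receptors were split, 5 of 11 above 0 in both libraries and 2 below, while 4 of 6 other cytokines and 4 of 5 inhibitory receptors were below 0 in both, and 2 of 4 CD4 lineage genes were above. Among 12 measured interferon-response genes 7 were above 0 in both libraries and 2 below, with medians of 0.11 and 0.36.

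Within the Th1 nuclei, those with a UMI of Gzma or Nkg7 (131 knockout and 250 control nuclei) were set against those with neither (68 and 129). Gzmb held 198 UMIs in the positive and 22 in the negative knockout nuclei, a log2 ratio of 2.12 (1.51 to 2.85), and 325 and 21 UMIs in the control nuclei, 3.02 (2.41 to 3.76). Ccl5 had ratios of 1.20 and 1.76. Itgae, the integrin CD103 that binds E-cadherin on epithelium, held 35 and 6 UMIs in knockout nuclei (1.43, 0.26 to 3.06) and 46 and 5 in control nuclei (2.18, 0.97 to 3.99). Granzyme B RNA and Itgae RNA thus lay mostly in the nuclei with Gzma or Nkg7.

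Of the markers of other cells, Tcrg-C2 had 21 UMIs in the positive and 0 in the negative knockout nuclei and 24 and 7 in the control nuclei. Fcer1g had 13 and 0 UMIs in knockout nuclei and 1 and 7 in control nuclei, and Tff2 had 9 and 53 and then 6 and 2. The part of the cells they mark in these ratios was not tested.

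Fasl, Xcl1 and Runx3 did not separate along that line in both libraries. Fasl had ratios of 0.02 (-0.66 to 0.75) and -0.08 (-0.49 to 0.34), Xcl1 had 0.50 and 0.08, and Runx3 had -0.32 and 0.05, the last pair with intervals that include 0. Ctla4 (1.15 and 0.62) and Ikzf2 (0.65 and 0.43), genes usually read as regulatory, were higher in the Gzma or Nkg7 nuclei of both libraries, as were Hopx (1.10 and 0.81), Areg (1.83 and 1.14), Cd160 (1.84 and 2.34) and Stat4 (0.42 and 0.27). Il22, the epithelial cytokine, had 200 UMIs in positive and 9 in negative knockout nuclei and 79 and 15 in control nuclei, with 29.7% of its knockout and 54.3% of its control Th1 UMIs in 1 nucleus each. Its ratio of knockout over control Th1 nuclei was 1.96, and -1.29 once nuclei with innate, CD8 or gamma delta markers were left out.

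Chromatin accessibility, which the rule did not use, was compared over 19850 regions where peaks of both libraries overlapped and at least 10 fragments were expected in Th1 nuclei of each. In the knockout library 291 of these (1.47%) were at least 2-fold more and 623 (3.14%) at least 2-fold less accessible in Th1 nuclei, and in the control library 263 (1.32%) and 446 (2.25%). In both, 82 (0.413%) were at least 2-fold more accessible and 184 (0.927%) at least 2-fold less. These counts were 7 and 20 with at least 20 fragments expected, so the shares below rest on regions with few fragments. With Gzma and Nkg7 alone as rule genes, at a lowered threshold of 2 rule-gene UMIs, they were 4 and 13. With 1 library per genotype each ratio has no replicate, and the second library is the only repeat. The 82 more accessible and the 184 less accessible regions both lay mostly away from gene starts. A start site was covered by 2 of the 82 (2.44%) and 14 of the 184 (7.61%), against 41.8% of all regions tested. Of the 82, 31 were intronic (37.8%) and 36 intergenic (43.9%). Where the gene nearest to one of the 82 had measured RNA, that RNA was above 0 in both libraries for 31 of 46 (67.4%), against 36.7% over all regions. The 82 include regions at Ifng, Tbx21, Il12rb2 and Nkg7. Rule genes, higher in RNA by selection, were not left out of this count, so it was partly set by the rule.

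The start of Nkg7 was the promoter among the 10 highest regions. The region chr7:43436244-43437219 (mm10), which contains the window printed above, held 29 fragments in Th1 and 35 in other knockout nuclei, or 33.7 against 11.3 CPM of fragments, a log2 ratio of 1.58 (0.81 to 2.32). In the control library it held 26 and 41 fragments, or 22.2 against 7.82 CPM, a log2 ratio of 1.52 (0.74 to 2.25). The Ifng start region, chr10:118440467-118441397, had 24 and 40 knockout fragments (1.12, 0.31 to 1.87) and 36 and 52 control fragments (1.64, 0.98 to 2.27). The start regions of Xcl1 and Il12rb2 were under the fragment minimum. Xcl1 had 13 fragments in Th1 and 22 in other knockout nuclei and 28 and 39 in the control library. Il12rb2 had 17 and 24 in the knockout library and 20 and 34 in the control library.

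Some distal regions were also more accessible. Those named were among the 3 highest measured regions within 50 kb of each gene, so they do not stand for the whole locus. Above 0 in both libraries were 3 of 4 measured regions at Il12rb2 and 4 of 8 at Tbx21. At Cxcr3 it was 3 of 3, at Stat4 6 of 10, and at Il18r1 and Il18rap 0 of 4 each, against 34.0% of all regions tested. At Il12rb2, an intergenic region at chr6:67399238-67400221, at -23541 bases from the start, held 23 and 29 knockout fragments (1.52) and 45 and 67 control fragments (1.59), and an intronic one at chr6:67347767-67348916 had ratios of 1.59 and 0.84. At Tbx21, an intronic region at chr11:97103728-97104586 had ratios of 1.18 (0.38 to 1.92) and 1.71 (1.15 to 2.26), whereas the Tbx21 start region had 0.29 and 0.31 with intervals that include 0. Cxcr3, whose RNA differed little, had a region at -3184 bases from its start, chrX:101736990-101737917, with 30 and 47 knockout fragments (1.20) and 49 and 61 control fragments (1.85). Stat4, also near even in RNA, had an intronic region at chr1:52034710-52035821 with ratios of 0.81 and 1.18.

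**Figure D4:**
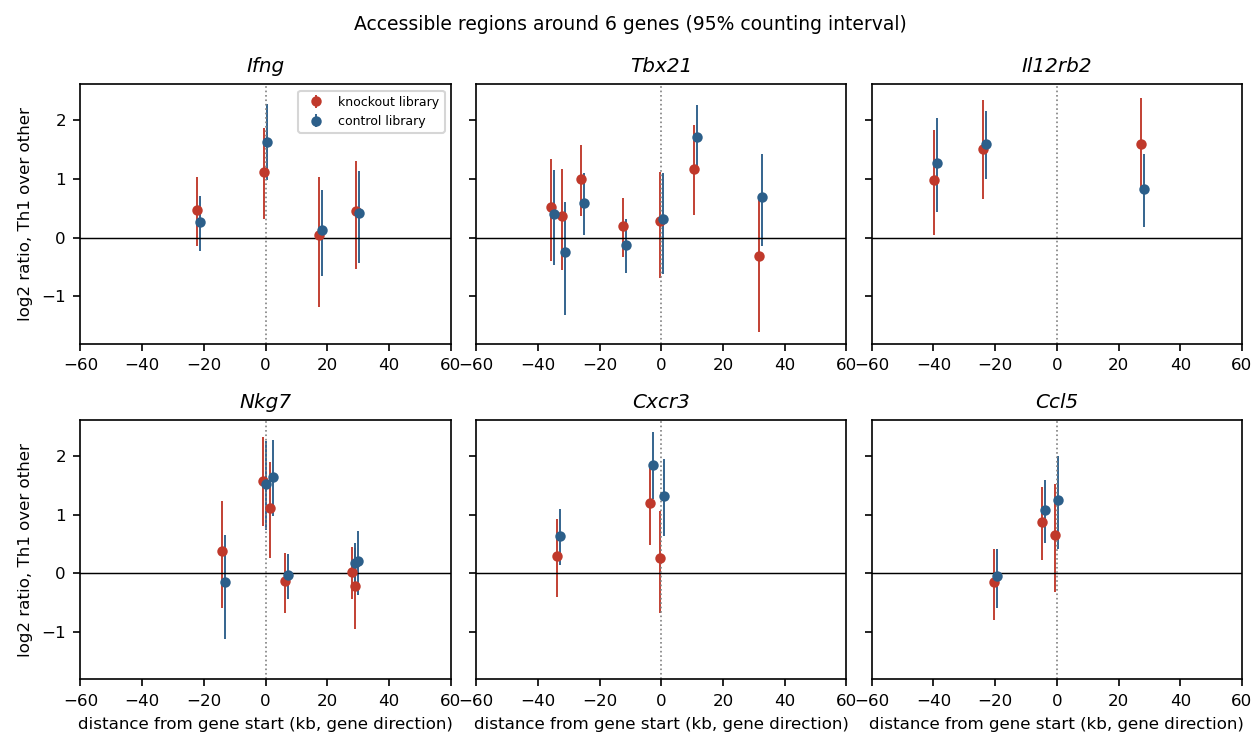
Log2 ratio of accessibility in Th1 nuclei over other Cd3-positive nuclei (y axis) for measured regions inside the plotted window, by distance from the gene start in kb along the gene (x axis), with 95% counting intervals, the knockout library in red and the control library in blue drawn slightly apart. At Ifng and Nkg7 the highest region is at or beside the start, and at Tbx21, Il12rb2 and Cxcr3 it lies away from it.

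Summed over all regions within 50 kb, the accessibility ratio was above 0 at each rule gene. It was smallest at Nkg7, with 0.16 (-0.07 to 0.39) in the knockout library, an interval that includes 0, and 0.20 (0.01 to 0.39) in the control library, and largest at Gzma, with 1.08 and 1.19. Ifng had 0.57 and 0.52, Tbx21 0.52 and 0.53, Il12rb2 0.68 and 0.82, and Xcl1 0.55 and 0.50. Gzmb, outside the rule, had 0.62 and 0.52. Loci of other listed genes were not all above 0. Il18r1 had -0.34 (knockout) and 0.15 (control), Il18rap -0.21 and 0.26, and Il12rb1 -0.04 and -0.01. Ctsw, more than 2-fold higher in RNA, had -0.05 and 0.07. Within the Th1 nuclei, the Gzma locus differed between nuclei with and without Gzma or Nkg7 UMIs by 0.41 (-0.26 to 1.18) in the knockout library and 0.44 (-0.08 to 1.00) in the control library, so a difference was not detectable at this depth.

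The highest ratio of all was far from any gene start. The region chr15:59761751-59762636, nearest to Trib1 but 113843 bases from its start, held 25 and 21 knockout fragments (2.09, 1.20 to 3.01) and 36 and 25 control fragments (2.68, 1.91 to 3.49). An intron of Itpr1, at chr6:108540161-108541127 and upstream of Bhlhe40, had ratios of 1.49 and 1.57. Among the less accessible regions 14 of 184 (7.61%) covered a start site. One of them was the start of Ky, at chr9:102505469-102506473, with 2 fragments in Th1 and 56 in other knockout nuclei and 2 and 71 in the control library, a gene whose RNA was at -2.30 and -2.37. For 67 of the 91 less accessible regions whose nearest gene was measured (73.6%), RNA was below 0 in both libraries, against 34.8% over all regions.

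Between genotypes, the Th1 genes and cytotoxic genes of the Th1 nuclei had no common direction. Over 4516 genes with at least 40 UMIs in the Th1 nuclei of both libraries together, 50 (1.11%) were at least 2-fold higher in the knockout and 65 (1.44%) at least 2-fold lower, and the median log2 ratio was 0.02. With at least 100 UMIs over both libraries these counts were 13 and 14. Of 14 measured Th1 genes 8 were above 0, against 51.5% of all genes, and 6 below, against 48.5%, with a median of 0.04 and none past 2-fold. Of 14 cytotoxic genes 7 were above 0 and 7 below, with a median of -0.01 and only Klrk1 past 2-fold (10 UMIs in knockout against 47 in control nuclei, -1.37).

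Single rule genes were within 1.5-fold of each other in the Th1 nuclei of both libraries, after a rule that selected on them. Ifng stood at 388 CPM in knockout and 463 CPM in control Th1 nuclei (log2 ratio -0.25, -0.52 to 0.01), Il12rb2 at 1917 and 1834 CPM (0.06, -0.06 to 0.19), Gzma at 1209 and 1027 CPM (0.24, 0.08 to 0.39) and Nkg7 at 364 and 495 CPM (-0.44, -0.72 to -0.18). Il12rb2 was higher in other knockout than other control nuclei, at 282 against 139 CPM (1.02). Xcl1 stood at 561 and 573 CPM in Th1 nuclei (-0.03) and at 151 and 101 CPM in other nuclei (0.58). Fasl was at 182 CPM in knockout and 270 CPM in control Th1 nuclei (-0.57, -0.95 to -0.20), and Ccl5 at 637 and 819 CPM (-0.36, -0.57 to -0.16). Gzmb stood at 482 and 433 CPM (0.16, -0.10 to 0.40). Its ratio was -0.10 once the knockout nucleus with the most Gzmb UMIs was left out, an alternative chosen after seeing the data. The control nuclei were all kept in that alternative.

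Cd4 itself had the most UMIs among the 10 genes with the highest ratios. It held 425 UMIs in knockout and 258 in control Th1 nuclei, or 931 against 323 CPM (log2 ratio 1.53, 1.30 to 1.76), and the ratio was 1.56 in the other nuclei. Its start region, chr6:124887804-124888709, held 61 knockout and 12 control fragments in Th1 nuclei (2.75, 1.89 to 3.82), with 2.46 in the other nuclei. The knockout mice alone carry a transgene with Cd4 regulatory sequence, so transgene copies and the Cd4 gene cannot be told apart here. Of all regions tested, 387 (1.95%) were at least 2-fold more accessible in knockout Th1 nuclei and 372 (1.87%) at least 2-fold less.

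Among the other genes with the highest ratios, Slc15a2, a peptide transporter, held 99 UMIs in knockout and 57 in control Th1 nuclei (1.60, 1.12 to 2.10), with 1.12 in other nuclei. Soat2, a cholesterol esterifying enzyme, held 30 and 14 UMIs (1.88), and Tpd52 37 and 20 UMIs (1.68). Rasgrp2, an activator of the integrin switch Rap1, held 42 and 25 UMIs (1.55) with -0.22 in other nuclei. The remaining 5 of the 10 highest were Zfand2a, Car2, Dnaja4, Zgrf1 and Pex7, between 1.26 and 1.48. All 6 heat shock genes measured were above 0, against 51.5% of all genes, with a median of 0.86 in Th1 nuclei and 0.44 in other nuclei. Hspa1a stood at 1766 against 901 CPM (0.97).

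Genes lower in the knockout rested on few UMIs, as did several of the higher ones, among them Soat2, Tpd52 and Rasgrp2. Irf7, a regulator of interferon responses, held 10 UMIs in knockout and 58 in control Th1 nuclei (-1.67, -2.86 to -0.75), with -0.84 in other nuclei. Irak3, a brake on Toll-like receptor signalling, held 5 and 42 UMIs (-2.14), Anxa2 10 and 64 (-1.81), and Prr5l, which binds mTORC2, 9 and 56 (-1.76). Tnf held 28 and 102 UMIs (-1.04, -1.72 to -0.44) with a ratio of 0.43 in other nuclei. The remaining 6 of the 10 lowest were Bckdha, Mcts1, Lamtor2, Fkbp1a, Riok3 and Tmbim4, between -1.88 and -1.45. Of 13 measured interferon-response genes 8 were below 0, against 48.5% of all genes, and 5 above, against 51.5%. Their medians were -0.27 in Th1 nuclei and 0.06 in other nuclei.

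**Figure D5:**
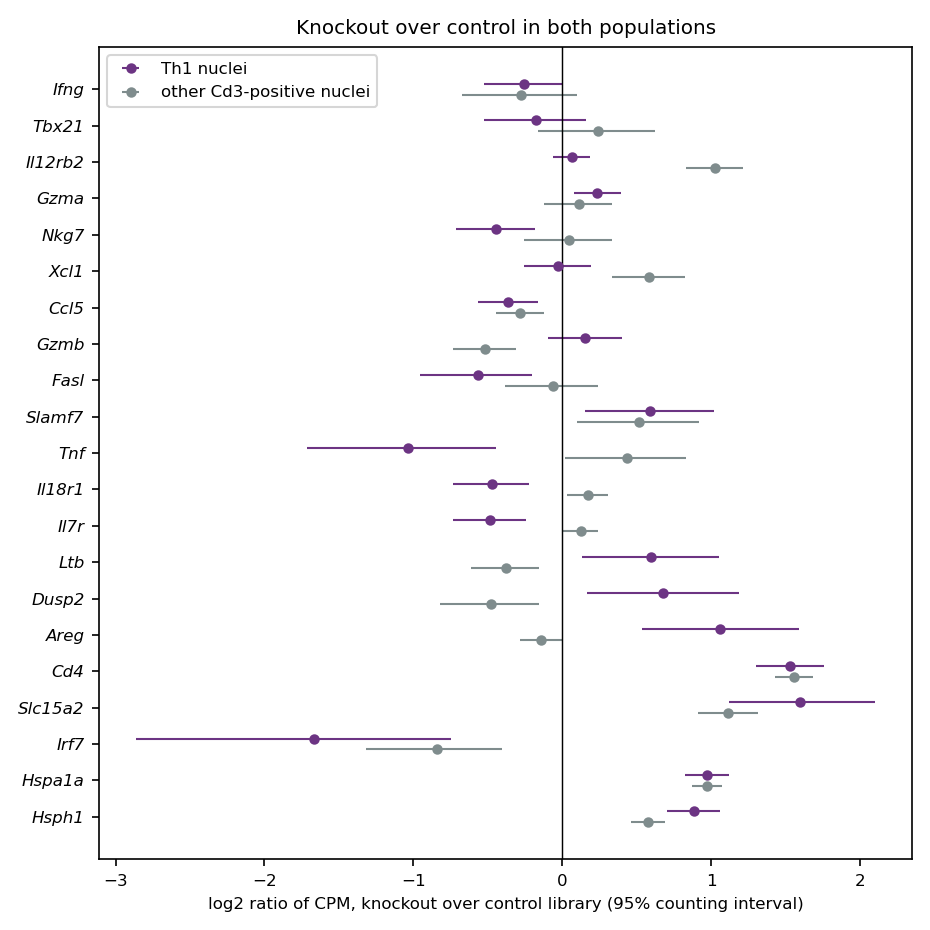
Log2 ratio of CPM in the knockout over the control library (x axis) for rule genes, list members and genes named by size, in Th1 nuclei (purple, upper) and other Cd3-positive nuclei (grey, lower), with 95% counting intervals. Cd4 and Hspa1a lie at about the same ratio in both populations, while Tnf, Il18r1, Il7r, Ltb, Dusp2 and Areg lie on opposite sides of 0.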

How the data were processed

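Nuclei were profiled with the 10x Single Cell Multiome kit, per the labels' protocols. The authors deposited unnormalized counts, UMIs for genes and counts for peaks of each barcode, made with Cell Ranger ARC 2.0.1 on mm10, per the submitters' processing notes. Peaks were called separately in each library, and the sources used here give no filters before deposit. UMI counts were summed over the nuclei of a population in each library and given as CPM, and log2 ratios used 0.5 added UMIs with exact conditional 95% intervals. Peak values were mostly even (90.7% knockout, 91.7% control), so fragments were taken as the count divided by 2, rounded up. Regions are peaks that overlap by at least 1 base, which matched 85.8% of knockout and 87.7% of control peaks. Positions are 1-based, and genes and exons come from GENCODE vM21. Doublets were not called, and the limit of 4000 UMIs is the only guard against them. The libraries shared 11 barcode sequences, and 0 of them were Th1 nuclei. Each genotype had 1 library, so no test was run, and a call means at least 2-fold in the libraries named. The computations were tested on simulated counts.

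The members, the 24 gene lists and the tests were chosen with earlier results of these data known. Genes named by size were the 12 highest and 12 lowest by the smaller of the ratios in the 2 libraries, past the minimum, with intervals on 1 side of 0 and no nucleus holding over 20% of the UMIs, and for knockout over control the 10 highest and 10 lowest. List members could also be named, and some genes that the rule picked are not reported here. Antigen receptor, mitochondrial, sex-linked, rule and excluded genes were outside that ranking. Regions named by size were the 10 highest and 5 lowest. At single Th1 genes, up to 3 regions within 50 kb with the highest smaller ratio could also be named. Alternatives varied the rule's thresholds, the comparison nuclei, scaling, pseudocount, minimum, depth and fragment counting. Python 3.11.15, numpy 2.4.6, scipy 1.17.1 and pandas 2.3.3 were used.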

Additional observations from a re-analysis of the deposited data

Results flagged for a closer look

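Among 251 genes looked at, 154 passed the UMI minimum in Th1 nuclei, and 8 of these moved in opposite directions between genotypes in Th1 and in other Cd3-positive nuclei, with both counting intervals on 1 side of 0. The 251 were members of the gene lists and genes named by size. Pex7 was among them for its high knockout over control ratio in Th1 nuclei, so its direction there was set by that choice. The difference itself was not tested, since each genotype had 1 library. Lower in knockout than in control Th1 nuclei, but higher in other knockout nuclei, were Tnf (-1.04 in Th1 nuclei, 0.43 in other nuclei), Il18r1 (-0.47 and 0.17), Il7r (-0.48 and 0.12) and Nlrc5 (-0.33 and 0.26). Higher in knockout Th1 nuclei but lower in other knockout nuclei were Pex7 (1.26 and -0.62), Areg (1.06 and -0.14), Dusp2 (0.68 and -0.48) and Ltb (0.60 and -0.38). Il18r1 encodes the ligand-binding chain of the interleukin-18 receptor. An intronic region there, chr1:40467014-40467929, held 6 fragments in knockout and 24 in control Th1 nuclei (-1.46, -3.13 to -0.22), against 0.01 in the other nuclei. It is 1 of 27 matched regions within 50 kb, of which 4 passed the fragment minimum, and knockout over control ratios of the rest are not reported here. Of all regions tested, 1.87% were at least 2-fold less accessible in knockout Th1 nuclei.

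A pair of genes was placed on opposite sides of the other nuclei in the libraries. Il7r, the interleukin-7 receptor, had a Th1 over other log2 ratio of -0.35 in the knockout and 0.26 in the control library. Rasgrp2 had 1.01 and -0.75. It was looked at because of its high knockout over control ratio in Th1 nuclei, which rests on the same Th1 UMIs. These differences were not tested either.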

How the results depend on the processing

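No paired analysis was possible because each genotype had 1 library and no test was run. The share of Th1 nuclei (22.6% knockout, 18.7% control) became 27.8% and 23.8% with at least 2 rule-gene UMIs, 18.7% and 15.6% with at least 4, and 14.3% and 13.6% when nuclei were thinned to 1000 UMIs before the rule. The 32 higher and 99 lower genes of Th1 over other nuclei became 12 and 36 with Gzma and Nkg7 alone as rule genes, 533 and 611 with no UMI minimum, 16 and 48 with a minimum of 50 UMIs, 10 and 36 with no upper limit on UMIs (chosen after seeing the data), and 57 lower when nuclei were thinned after the rule. The 82 more and 184 less accessible regions became 40 and 117 with at least 4 rule-gene UMIs, 46 and 91 at 1000 to 3000 UMIs per nucleus, 26 and 67 with at least 2 Cd3 UMIs, 22 and 90 with Ifng, Tbx21 and Il12rb2 alone, 4 and 13 with Gzma and Nkg7 alone, 7 and 20 with a minimum of 20 fragments, and 41 more accessible with no upper limit.

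For knockout over control in Th1 nuclei, the 50 higher and 65 lower genes became 2408 and 1446 with no minimum, 13 and 14 with a minimum of 100 UMIs over both libraries, 27 higher with thinning and 118 higher with no upper limit. The 387 and 372 regions became 45 and 37 with a minimum of 20 fragments, 254 more accessible at 1000 to 3000 UMIs, 233 less accessible with at least 2 Cd3 UMIs and 826 more accessible with no upper limit. The cause of these shifts was not tested beyond the numbers of features or nuclei that each setting itself changes. Of the values for single genes and regions, 3203 stayed within their counting interval, 221 moved outside it, and 2 values past 2-fold changed sign. Settings that changed only a minimum could not move a single value. They gave 130 (no UMI minimum), 130 (a minimum of 50 UMIs) and 134 (a minimum of 20 fragments) of the 3203. Il22, knockout over control, was -1.29 without nuclei bearing innate, CD8 or gamma delta markers, and the region chr9:52069786-52070769 in an intron of Rdx was -0.17 in the knockout library with Gzma and Nkg7 alone. Regions rest on few fragments, often under 50 in Th1 nuclei, so a call there turns on a few of them.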
